A study of Mus musculus with 2 samples.

Results

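Lgals1, S100a6, S100a10, S100a11, S100a4, Anxa1, Anxa2, Vim and Gem were followed in bone marrow LSK cells of control and irradiated mice. The 9 genes were matched by symbol among the 31053 genes of the files, and each was found once. They had been chosen because some of them stood among the genes with the largest irradiated-to-control ratios in these same libraries, so their ratios are a description and carry no test. LSK cells are the marrow cells that lack lineage markers and carry Sca1 and c-Kit, and they hold the blood stem cells and multipotent progenitors. All mice were C57BL/6J, aged 6 to 8 weeks. The control library came from mice without irradiation, and the irradiated library from mice taken on day 15 after 5 Gy of total body irradiation. The number of animals behind each library is not given in the sources used here. Each group had 1 library, so no value has a replicate error. The intervals given are exact 95% Clopper-Pearson intervals that cover counting error only.

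Galectin-1, the product of Lgals1, is a small sugar-binding protein that is secreted and that crosslinks glycoproteins on the cell surface. Most S100 proteins are small calcium-binding dimers, and several of them bind annexins, which attach to membranes when calcium rises. S100a10 forms a tetramer with annexin A2 at the plasma membrane. Vimentin is an intermediate filament protein of motile and mesenchymal cells, and Gem is a small GTPase of the RGK family that is induced in activated T cells and that acts on calcium channels and on the cytoskeleton. In lymphocytes, S100a4, S100a6, Lgals1 and Vim are commonly higher in activated and memory cells than in naive ones.

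On build GRCm38, with the GENCODE M21 annotation, Lgals1 (ENSMUSG00000068220) lies at chr15:78926725-78930465 on the plus strand. All 4 S100 members lie on chromosome 3, also on the plus strand, as 2 neighbouring pairs. S100a4 (ENSMUSG00000001020, chr3:90603771-90606045) and S100a6 (ENSMUSG00000001025, chr3:90612882-90624181) have only S100a5 between them. S100a11 (ENSMUSG00000027907, chr3:93520488-93526287) and S100a10 (ENSMUSG00000041959, chr3:93555080-93564643) form the other pair. Anxa1 (ENSMUSG00000024659) lies on the minus strand at chr19:20373428-20390944. Anxa2 (ENSMUSG00000032231, chr9:69453620-69491795), Vim (ENSMUSG00000026728, chr2:13573927-13582826) and Gem (ENSMUSG00000028214, chr4:11704457-11714752) are on the plus strand. Genes that overlap members in the annotation and have a row in the files held 0 or 1 UMI in each library.

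Promoter windows, from 250 bases before to 50 bases after the RefSeq start on GRCm38.p6, matched 6 of the 9 members by symbol, and Lgals1, S100a10 and Gem are named only. Each window was searched on both strands for 6 motifs, and the motifs did not overlap in the members. TGANTCA, the AP-1 site, stood in 2 of 6 member windows and in 7.81% of 32851 promoters of the same length. TATAAA, the TATA box, stood in 4 of 6 and in 13.6% of all. The cAMP response element TGACGTCA, the core of the interferon-stimulated response element (GAAA and GAAA with any 2 bases between) and the STAT site TTCNNNGAA stood in 0 of 6, and in 1.79%, 3.44% and 8.3% of all promoters. CACGTG, the E-box, stood in 2 of 6 and in 7.15% of all. The windows of S100a6 and S100a4 are shown because these neighbours had the highest ratios of the matched members in HSC-like cells, and those of S100a11 and Anxa2 because they hold the AP-1 letters. Capitals mark TGAGTCA (S100a11 at positions -136 and -38 from the start, Anxa2 at -95), TATAAA (S100a4 at -31, Anxa2 at -17) and CACGTG (S100a11 at -223, S100a6 at 14, past the start). All 4 are plus-strand windows, at chr3:90612644-90612943, chr3:90603520-90603819, chr3:93520246-93520545 and chr9:69453433-69453732 in the order shown.
S100a6: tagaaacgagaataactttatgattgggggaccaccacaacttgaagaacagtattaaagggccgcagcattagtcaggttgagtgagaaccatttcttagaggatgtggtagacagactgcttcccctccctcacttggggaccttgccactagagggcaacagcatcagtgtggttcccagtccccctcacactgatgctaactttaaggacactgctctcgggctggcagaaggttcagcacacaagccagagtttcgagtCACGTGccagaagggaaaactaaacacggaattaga
S100a4: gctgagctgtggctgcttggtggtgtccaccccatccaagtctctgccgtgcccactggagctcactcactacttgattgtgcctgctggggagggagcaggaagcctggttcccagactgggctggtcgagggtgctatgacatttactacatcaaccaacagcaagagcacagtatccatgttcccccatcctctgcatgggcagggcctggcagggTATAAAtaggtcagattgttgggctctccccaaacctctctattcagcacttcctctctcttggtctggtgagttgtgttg
S100a11: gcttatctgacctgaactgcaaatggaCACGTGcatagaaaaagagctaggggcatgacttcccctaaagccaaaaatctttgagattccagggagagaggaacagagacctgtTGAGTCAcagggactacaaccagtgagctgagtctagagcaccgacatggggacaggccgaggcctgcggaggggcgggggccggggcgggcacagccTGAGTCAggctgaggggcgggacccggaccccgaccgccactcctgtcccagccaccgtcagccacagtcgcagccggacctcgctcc
Anxa2: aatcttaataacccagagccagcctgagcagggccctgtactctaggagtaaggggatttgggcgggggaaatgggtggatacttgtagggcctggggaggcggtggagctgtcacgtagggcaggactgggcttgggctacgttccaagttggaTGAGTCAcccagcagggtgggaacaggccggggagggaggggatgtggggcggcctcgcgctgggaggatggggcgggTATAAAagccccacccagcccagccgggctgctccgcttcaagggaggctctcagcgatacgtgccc
Vim and Anxa1, not shown, each held TATAAA at -32. A match is a run of letters and says nothing about binding.

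Transcript molecules were counted as unique molecular identifiers (UMIs) by the 10x Genomics 3' method. The control library held 7686 barcodes with 139274656 UMIs and the irradiated library 5596 barcodes with 165119247 UMIs, and 16 barcodes occurred in both. After filtering, 7190 control and 5110 irradiated cells remained, with medians of 16084.5 and 29610.5 UMIs per cell. Levels are UMIs of a gene divided by all UMIs of the same set of cells and scaled to 1000000 (CPM), and in each pair of values the control library comes first. The sort genes were present in both libraries, Ly6a (Sca1) at 156 and 218 CPM and Kit at 132 and 73.5 CPM. Of the mature lineage genes, Cd3e and Ly6g stayed at or under 0.239 CPM, while the integrin gene Itgam stood at 10.3 and 6.04 CPM.

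Over all cells, Lgals1 and Gem were more than 2-fold higher in the irradiated library, S100a6 and Anxa2 were higher by less than that, and the other 5 genes differed little. A gene was tested for size where its mean over both libraries reached 20 CPM, which 5247 genes and all 9 members did. Of the tested genes, 1.11% had at least a 2-fold higher level in the irradiated library and 2.38% a level lower by as much. Members at least 2-fold higher numbered 2 of 9 and members lower by as much 0, and since these ratios chose the members, nothing is read from those counts. The median log2 ratio was 0.29 over the members and 0.02 over all tested genes.

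Lgals1 stood at 287 CPM in the control and 822 CPM in the irradiated library, 2.86-fold higher (log2 ratio 1.52, 1.50 to 1.53). It ranked 22 among the 5247 genes. Gem had 2226 UMIs in the control and 6449 in the irradiated library, which is 16.1 and 39.7 CPM and a log2 ratio of 1.30 (1.23 to 1.37). Both genes were spread over many cells, since the 10 cells with the most UMIs of a gene held at most 5.69% of its UMIs in a library. S100a6 stood at 52.3 and 99.7 CPM (log2 ratio 0.93, 0.89 to 0.97), just short of 2-fold. Anxa2, the membrane partner of S100a10, stood at 51.5 and 88.0 CPM (log2 ratio 0.77, 0.73 to 0.82).

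S100a10, its partner, did not follow it in the whole libraries. Its level was 310 and 283 CPM (log2 ratio -0.13, -0.15 to -0.11), a small difference that changed sign with each cell weighted equally. S100a11, which binds annexin A1, stood at 241 and 247 CPM (log2 ratio 0.04). S100a4, a regulator of non-muscle myosin, stood at 28.2 and 31.3 CPM, and Anxa1, an annexin known for damping inflammation, at 66.7 and 74.3 CPM. Both had a log2 ratio of 0.15. Vim stood at 383 and 468 CPM (log2 ratio 0.29, 0.27 to 0.31). In the libraries as wholes, more RNA per cell and a different mix of cells cannot be told apart, so the same genes were read within classes of cells.

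**Figure D1:**
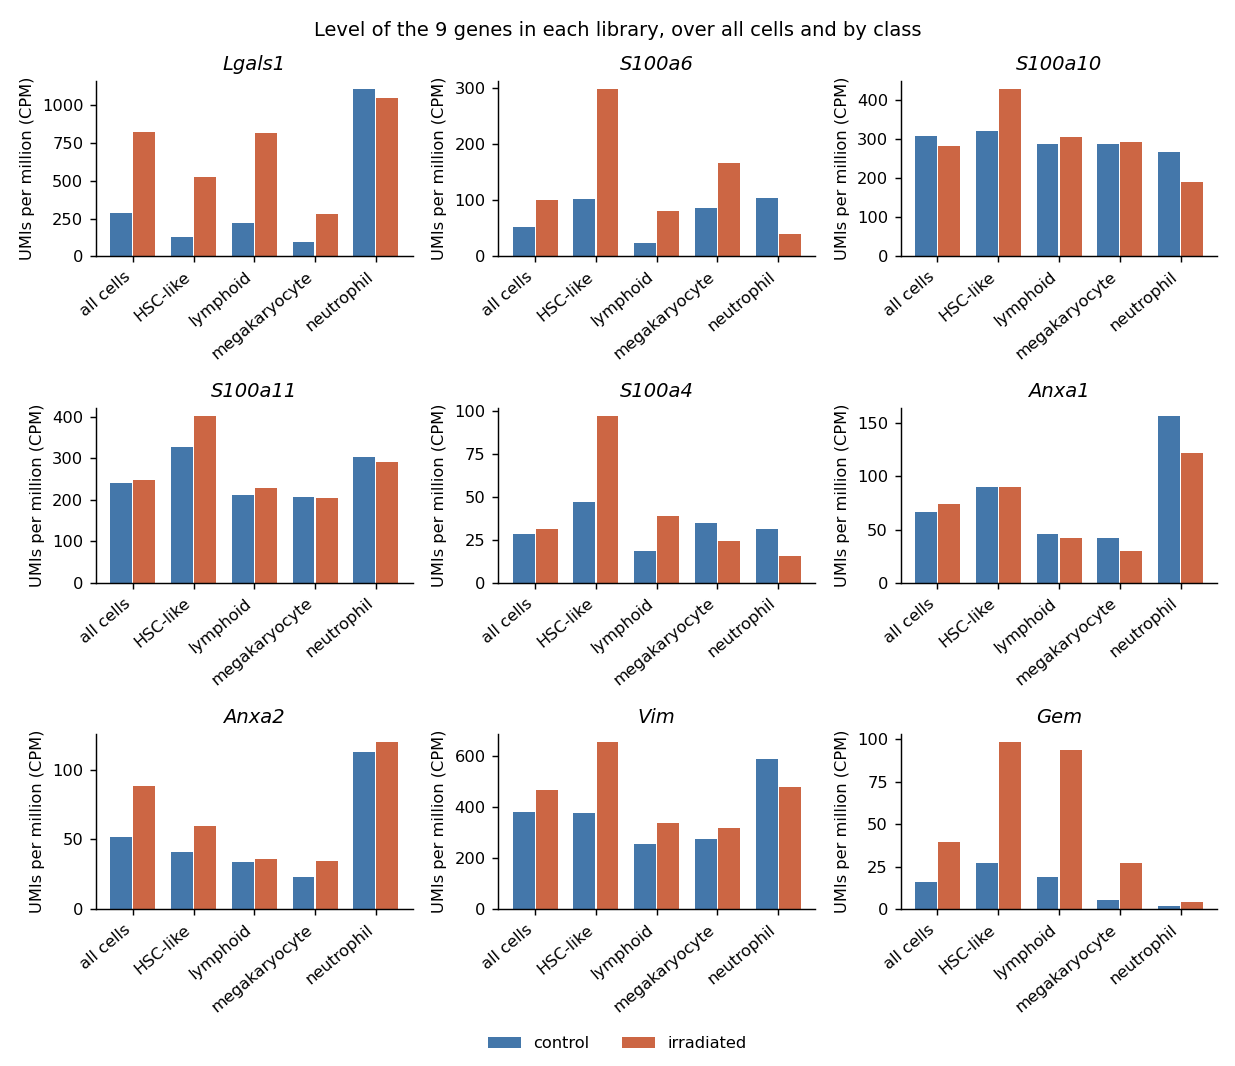
Level of each of the 9 genes in CPM (linear axis from 0, own scale per gene) in the control and irradiated libraries, over all cells and in 4 marker-named classes; each bar is 1 library. Lgals1 is higher in the irradiated bars of the HSC-like, lymphoid-primed and megakaryocyte-primed classes and about level in the neutrophil-primed class (1105 and 1047 CPM).

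Classes came from clusters made without the 9 genes and named from lists of marker genes. HSC-like cells, with Hlf, Mllt3 and other stem cell markers, were 1704 control and 335 irradiated cells, or 23.7% and 6.56% of the libraries. Lymphoid-primed cells, led by Dntt, were 1128 and 290 cells. Megakaryocyte-primed cells, led by Pf4 and Itga2b, were 244 and 502 cells, and neutrophil-primed cells, led by Elane and Mpo, were 112 and 1102 cells, or 1.56% and 21.6%. In the neutrophil-primed class 10 monocyte/dendritic-primed markers summed to 2259 and 1728 CPM, and its own 9 markers to 14574 and 16537 CPM. With neighbours taken from all cells, 127 and 512 cells were named monocyte/dendritic-primed, and 105 and 843 neutrophil-primed. The part of monocyte-like cells in the ratios of the class was not tested. The names rest on rebuilt clusters. The 4 classes were compared because each held at least 100 cells in both libraries. Some members were chosen by their ratios in these libraries, so nothing is read from counts of members past a threshold in any class or cluster. The share over all tested genes is given beside each count for scale.

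In HSC-like cells, 4 of the 9 genes were at least 2-fold higher in the irradiated library (Lgals1, S100a6, S100a4 and Gem), 0 were lower by as much, and the median log2 ratio was 0.80. All 9 were tested. Over the 5468 genes tested in this class, 0.823% were at least 2-fold higher, 0.421% were lower by as much, and the median was 0.00385. With 30 neighbours taken from all cells the class held 486 and 42 cells, the count was 2 (Lgals1 and Gem), and S100a6 had a log2 ratio of 0.78. Control HSC-like cells had 130 CPM of Lgals1 and irradiated ones 524 CPM, 4.02-fold higher (log2 ratio 2.01, 1.93 to 2.09). Gem stood at 27.3 and 98.2 CPM (log2 ratio 1.85, 1.67 to 2.03). S100a6, which is known in fibroblasts as a growth-induced gene, stood at 102 and 298 CPM (log2 ratio 1.55, 1.45 to 1.65). These were ranks 4, 7 and 13 among the tested genes. S100a4 stood at 47.2 and 97.1 CPM (log2 ratio 1.04, 0.88 to 1.20), but 10 irradiated cells held 40.7% of its UMIs, and the ratio was 0.51 once the 10 highest cells in either library were left out. That leaves out a larger share of the 335 irradiated cells than of the 1704 control cells.

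The other members moved less in this class. Vim stood at 376 and 654 CPM (log2 ratio 0.80, 0.74 to 0.86). S100a10 stood at 322 and 428 CPM (log2 ratio 0.41, 0.34 to 0.48), and S100a11 at 326 and 402 CPM (0.30, 0.23 to 0.38), so both were higher here although they were about level in the whole libraries. Anxa2 stood at 40.9 and 59.9 CPM (log2 ratio 0.55, 0.35 to 0.74), and the ratio was -0.39 with those 30 neighbours. Anxa1 was level at 90.4 and 89.7 CPM (log2 ratio -0.01, -0.17 to 0.14). The 2 annexins among the members thus had different values in the same cells, and the difference between them was not tested. Class markers also differed in these cells. Markers are counted as higher when at least 1.25-fold higher in the irradiated library, with no minimum level. Of the genes tested in this class 8.21% were as high. The 8 HSC markers summed to 679 and 535 CPM (2 of 8 higher). The 9 erythroid-primed ones summed to 748 and 481 CPM (4 higher) and the 9 neutrophil-primed ones to 715 and 920 CPM (6 higher, with Fcnb at 0 in both). The 7 mast and basophil markers summed to 14.8 and 31.5 CPM (5 higher, with Ms4a2 and Cma1 at 0 in control and Cma1 in irradiated cells). Their part in the ratios was not tested.

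The HSC-like class joined 2 clusters, and Lgals1 and Gem were more than 2-fold higher in each, while S100a6 and S100a4 were so only in the larger. In the larger, with 1125 control and 255 irradiated cells, Lgals1 stood at 146 and 573 CPM (log2 ratio 1.97, 1.89 to 2.06), S100a6 at 83.0 and 303 CPM (1.87), S100a4 at 40.2 and 98.1 CPM (1.29) and Gem at 24.8 and 94.7 CPM (1.93). The smaller, led by Mllt3 and Hes1, had 579 and 80 cells. There Lgals1 stood at 93.3 and 326 CPM (1.81, 1.60 to 2.01), S100a6 at 144 and 277 CPM (0.94, 0.74 to 1.14), S100a4 at 63.2 and 93 CPM (0.56, 0.21 to 0.89) and Gem at 32.9 and 112 CPM (1.77). S100a6 was thus higher in the smaller cluster than in the larger one in control cells and a little lower there in irradiated cells.

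Lgals1 was higher in irradiated HSC-like cells of each cell cycle phase, called on cells thinned to 5000 UMIs. G1 cells were 79.5% of control and 82.1% of irradiated HSC-like cells. Lgals1 stood at 126 and 526 CPM in G1 cells, at 133 and 453 CPM in S phase cells and at 162 and 579 CPM in G2/M cells. Gem stood at 29.8 and 99.7 CPM in G1 cells. The irradiated S and G2/M groups held only 25 and 34 cells.

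Lymphoid-primed cells had 4 members at least 2-fold higher, the same 4 genes as HSC-like cells, and all 9 were tested. Of the 5066 genes tested in the class 0.612% were as high, and given how members were chosen nothing is read from the count. Gem stood at 18.9 and 93.9 CPM, 4.97-fold higher (log2 ratio 2.31, 2.12 to 2.51), and ranked 2. Lgals1 stood at 222 and 819 CPM (log2 ratio 1.88, 1.82 to 1.94) and S100a6 at 23.6 and 80.3 CPM (1.76, 1.58 to 1.95). S100a4 stood at 18.7 and 38.8 CPM (1.06, 0.82 to 1.30). Among the rest only Vim passed 1.25-fold, as 7.82% of tested genes did, at 256 and 340 CPM (0.41, 0.33 to 0.48). S100a10, S100a11, Anxa1 and Anxa2 had log2 ratios between -0.15 and 0.12. In this class the 9 neutrophil-primed markers summed to 576 and 857 CPM (7 of 9 at least 1.25-fold higher, with Fcnb at 0 in both). The 8 B lineage markers summed to 54.4 and 101 CPM (6 of 8 at least 1.25-fold higher, with Pax5 at 0 in control cells). No minimum level was set for these counts, and the part of the markers in the ratios was not tested.

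In megakaryocyte-primed cells 8 members were tested, and 1 of them, Lgals1, was at least 2-fold higher, with S100a6 just short of it, where 0.515% of 5438 tested genes were. Lgals1 stood at 94.6 and 278 CPM (log2 ratio 1.56, 1.42 to 1.70, and from 1.06 to 2.18 over the alternatives) and S100a6 at 86.7 and 167 CPM (0.95, 0.80 to 1.10). Gem, the untested one, rested on 28 control and 314 irradiated UMIs, which is 5.39 and 27.3 CPM and a log2 ratio of 2.34 (1.78 to 2.95). Its mean lay below 20 CPM, its ratio ran from 1.28 to 3.48 over the alternatives, and 10 control cells held 67.9% of its control UMIs. Members at least 1.25-fold lower, as 13.4% of tested genes were, were Anxa1 (42.6 and 29.5 CPM, -0.53) and S100a4 (34.9 and 24.4 CPM, -0.51, a sign that turned under 3 alternatives). Markers are again counted as higher from 1.25-fold, with no minimum level, and 7.59% of tested genes were as high. The 7 mast and basophil markers summed to 38.1 and 90.1 CPM in the class (6 of 7 higher, with Prss34 and Cma1 at 0 in control and Cma1 in irradiated cells). The 9 neutrophil-primed ones summed to 318 and 459 CPM (6 of 9 higher, with Fcnb at 0 in both). Their part in the ratios was not tested.

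In neutrophil-primed cells the pattern was different: Lgals1 was high in both libraries, at 1105 and 1047 CPM (log2 ratio -0.08, -0.12 to -0.04). Of the 8 tested members 0 were higher by 2-fold or more and 2 were lower by as much, against 0.248% and 0.454% of 4845 tested genes. Gem, the untested one, had 8 and 212 UMIs (1.77 and 4.28 CPM), with a log2 interval from 0.27 to 2.50. The lower ones were S100a6, at 105 and 39.9 CPM (log2 ratio -1.39, -1.54 to -1.25), and S100a4, at 31.4 and 15.5 CPM (-1.02, -1.28 to -0.75). These rested on few cells, since 10 of the 112 control cells held 77% of the S100a6 UMIs and 69% of those of S100a4. Without each library's 10 highest cells the log2 ratios were 0.53 and 0.38. That leaves out a larger share of the 112 control cells than of the 1102 irradiated cells. In thinned cells S100a6 was seen in 14.5% of control and 15.6% of irradiated cells, and S100a4 in 10% and 6.37%. The 7 mature neutrophil markers summed to 9974 and 189 CPM in the class, with 0 markers at 0 in either, and their part in these ratios was not tested. Vim stood at 587 and 480 CPM (-0.29) and S100a10 at 267 and 191 CPM (-0.48).

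**Figure D2:**
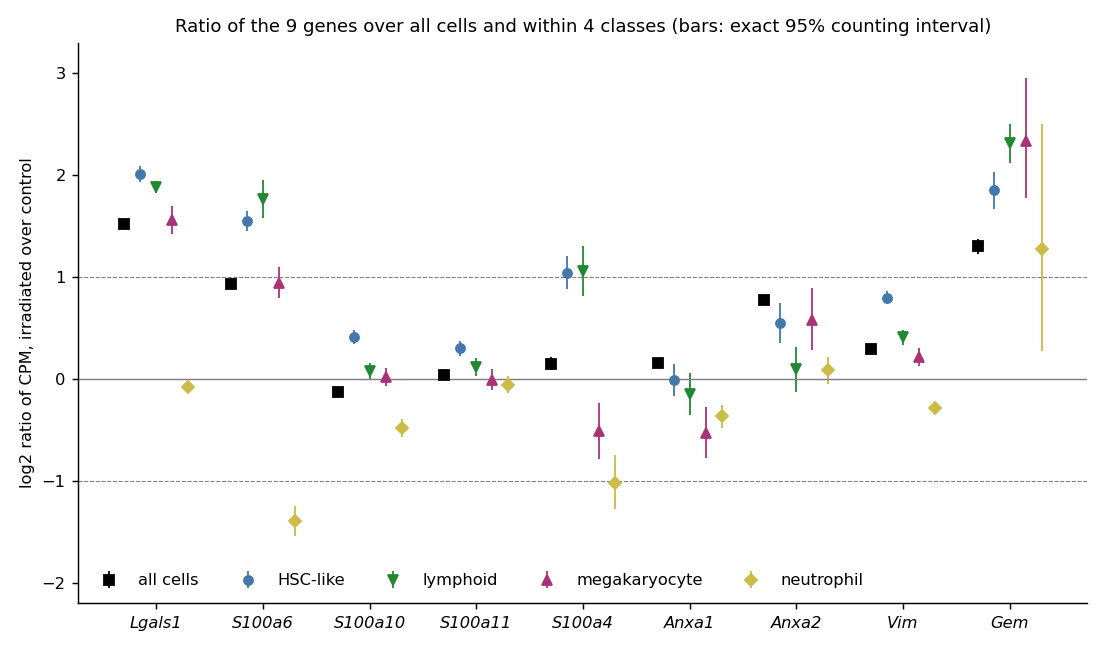
Log2 ratio of irradiated over control CPM for each of the 9 genes over all cells and in 4 classes; points are the ratios of 1 library over 1 library, bars are exact 95% counting intervals, and dashed lines mark 2-fold. Lgals1 lies at 2.01, 1.88 and 1.56 in HSC-like, lymphoid-primed and megakaryocyte-primed cells and at -0.08 in neutrophil-primed cells.

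Clusters that took no class name were read by number. Cluster 1, led by mitotic genes such as Nusap1 and Top2a, had 1282 control and 1031 irradiated cells, and cluster 2, led by S phase genes such as Ung and Mcm3, had 1073 and 1057 cells. Their Gem ratios were the highest of any set compared. Gem stood at 9.90 and 57.5 CPM in cluster 1 (log2 ratio 2.54, 2.38 to 2.69), and at 6.56 and 59.5 CPM in cluster 2 (log2 ratio 3.18, 2.94 to 3.43), or 9.06-fold. Lgals1 stood at 343 and 842 CPM and at 337 and 918 CPM in these clusters, and S100a6 at 30.2 and 107 CPM and at 37.2 and 155 CPM. Cluster 3, led by Wfdc17, Ccl3 and Ccl4, had 1402 and 145 cells, with Lgals1 at 149 and 689 CPM and Gem at 30.1 and 129 CPM, and 10 irradiated cells held 45.9% of that Gem. Members at least 2-fold higher were 3 in cluster 1, 4 in cluster 2 and 4 in cluster 3. Of all genes tested in each, 0.423%, 0.56% and 0.656% were as high, and given how members were chosen nothing is read from the counts.

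Among control cells Lgals1 was lowest in megakaryocyte-primed cells (94.6 CPM) and HSC-like cells (130 CPM) and highest in neutrophil-primed cells and in cluster 12, a small set of 24 control and 70 irradiated cells with Cd74 and class II genes (2231 and 448 CPM). Erythroid-primed cells, with 58 control and 501 irradiated cells, had 513 and 366 CPM of Lgals1, 6.88 and 11.3 CPM of S100a6 and 536 and 441 CPM of S100a10. Anxa1 stood at 190 and 17.1 CPM there. The S100a6 level of erythroid-primed cells was the lowest of any class in both libraries. The cluster named T/NK lineage, with 50 and 53 cells, had 44.5 and 99.6 CPM of Gem and 174 and 270 CPM of S100a4. Its top 10 genes held Trbc1, Tcf7 and Gzma, but also Cxcl10, Ifit3, Ifit1 and Rsad2. The last 4 were absent there with neighbours taken from all cells (39 and 27 cells). They were also absent at most 5% mitochondrial UMIs (36 and 26 cells). They stayed with members allowed in clustering or at resolution 0.5 (49 and 52 cells in each). With neighbours taken from all cells, Gem, Ifit1, Cxcl10 and Rsad2 stood among the top 10 genes of an unnamed cluster of 99 and 1229 cells. How much of the Gem of the T/NK cluster came from T/NK cells was not tested. B lineage cells, 113 and 24 in number, had 4.86 and 4.89 CPM of Anxa2. In irradiated cells Gem was highest in cluster 3, the T/NK cluster, HSC-like and lymphoid-primed cells, in that order. The last 3 lay close together at 99.6, 98.2 and 93.9 CPM.

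With the clusters held in fixed proportions of cells, several whole-library ratios changed. That of Lgals1 stayed close at the control mix, and those of S100a10 (-0.11) and S100a11 (0.07) did at the irradiated mix. The libraries as sampled weigh each cell by its UMIs, so both mix and weighting differ from the fixed proportions. At the cluster mix of the control library Gem had a log2 ratio of 2.17, S100a6 1.61, Lgals1 1.52 and S100a4 0.92. At the mix of the irradiated library, where neutrophil-primed cells weigh more, Gem had 2.22, S100a6 0.86, Lgals1 0.62 and S100a4 0.34. Gem was thus higher with either mix held than in the libraries as sampled (1.30), and Lgals1 fell below 2-fold at the irradiated mix.

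Depth differed between the libraries, so shares of cells were taken on cells thinned to 5000 UMIs each, which left out 66 control and 59 irradiated cells. In HSC-like cells the share with at least 1 UMI of Lgals1 was 38.1% (35.8 to 40.5) in control and 81.5% (76.8 to 85.5) in irradiated cells, and without thinning it was 59.5% and 94.0%. For S100a6 the thinned shares were 35.4% and 62.0%, and for Gem 10.1% and 31.9%. Vim was detected in most cells of both, at 79.3% and 90.9%. Genes that HSC-like cells should lack gave the background. Hba-a1, an erythroid globin gene, was seen in 0.652% and 0.912% of the thinned cells and the neutrophil gene S100a8 in 5.69% and 3.95%. Elane was seen in 1.18% and 10.6%. Before thinning, the median depths of HSC-like cells were 11377 and 13667 UMIs.

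Lymphoid-primed cells had Lgals1 in 45.6% and 85.9% of thinned cells, S100a6 in 11% and 29.3%, and Gem in 9.06% and 28.6%. In megakaryocyte-primed cells Lgals1 was seen in 26.3% and 55.8% and Gem in 1.65% and 9.2%. Neutrophil-primed cells had Lgals1 in 92.7% and 96.3%, and Gem in 0 of 110 control cells, which allows a share of up to 2.73%, and in 2.09% of irradiated cells. Elane in irradiated HSC-like cells stood at 22.6 CPM, which is 0.980% of its level in neutrophil-primed cells. The same percentage of the neutrophil-primed Lgals1 level is 10.3 CPM, beside 524 CPM measured, and for S100a6 and Gem it is 0.391 and 0.0419 CPM. These figures take neutrophil-primed cells as the only source. Irradiated cells of that class had only 39.9 CPM of S100a6 and 4.28 CPM of Gem, so low figures for these genes were given in advance. Carry-over from other sets was not estimated, such as irradiated clusters 1 and 2, with Gem at 57.5 and 59.5 CPM. In irradiated HSC-like cells the macrophage markers summed to 11.8 CPM, against 6.71 CPM in control, with 0 of 6 at 0. The T/NK markers summed to 253 CPM against 173 CPM, and 7 of 9 of them, Trbc1, Trbc2 and Cd3e included, were at 0 in irradiated HSC-like cells.

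**Figure D3:**
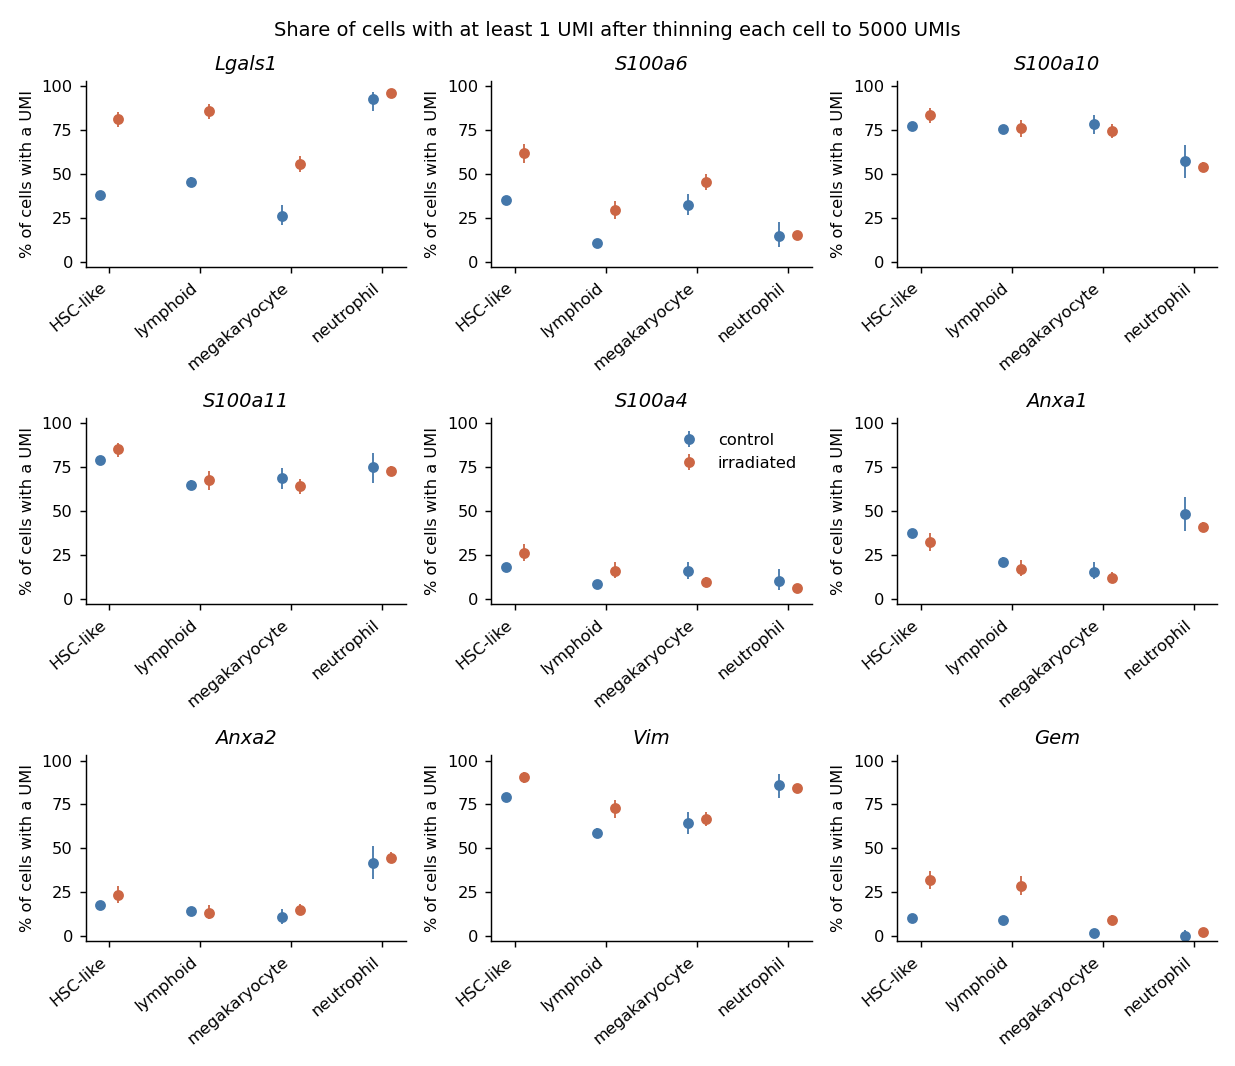
Share of cells with at least 1 UMI of each of the 9 genes in 4 classes, after thinning each cell to 5000 UMIs; points are 1 library each and bars are exact 95% intervals for counting error. Lgals1 goes from 38.1% in control to 81.5% in irradiated HSC-like cells, and from 92.7% to 96.3% in neutrophil-primed cells.

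Thinned HSC-like, lymphoid-primed and megakaryocyte-primed cells of the irradiated library had UMIs of more members per cell than control cells. Higher levels of single members raise this count, and some members were chosen by their ratios in these libraries. The count is therefore no separate result about joint expression. Among thinned HSC-like cells the median number of members with a UMI was 4 of 9 in control and 5 of 9 in irradiated cells, and the median sum of member UMIs was 7 and 12. Cells with at least 7 members were 2.96% (2.21 to 3.89) in the control and 17.3% (13.4 to 21.9) in the irradiated library. Cells with at most 2 were 14% and 2.13%. In lymphoid-primed cells the median went from 3 to 4 and the share with at most 2 members from 31.8% to 11%. Neutrophil-primed cells had a median of 4 and means of 4.26 and 4.18, and those with at least 7 members were 4.55% and 2.09%. In megakaryocyte-primed cells the median was 3 and 4, and cells with at least 7 members were 1.23% and 1.6%. From cell to cell within HSC-like cells, members were weakly correlated: over the 36 pairs the median Pearson r was 0.03 in control (n = 1688) and 0.09 in irradiated cells (n = 329), and the highest was 0.31 for S100a6 and S100a4 in irradiated cells. In control neutrophil-primed cells (n = 110) the median was 0.16, and the pairs ran from -0.47 for Lgals1 and Anxa1 to 0.47 for S100a11 and Anxa1. Cells of a class share 1 library and so are not replicates.

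**Figure D4:**
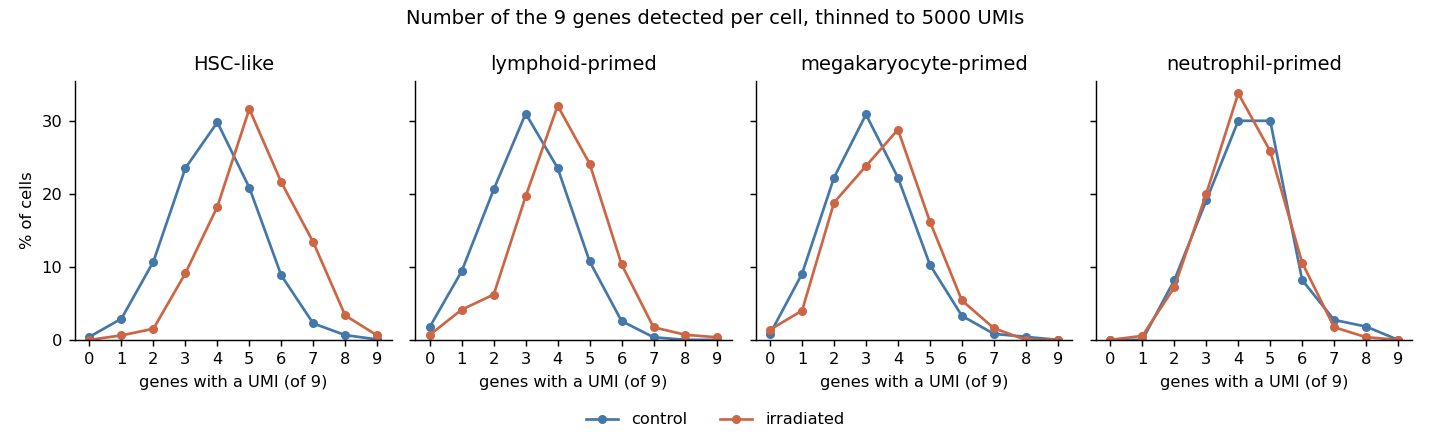
Percentage of cells (vertical axis) by the number of the 9 genes with at least 1 UMI (horizontal axis) in 4 classes, each cell thinned to 5000 UMIs; lines join the values of 1 library. The irradiated HSC-like line peaks at 5 genes and the control line at 4, and in neutrophil-primed cells both lines peak at 4 genes, with the control value the same at 5.

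Relatives of the members were taken from lists chosen by family and function. A list member was counted as higher or lower past 1.25-fold, as were 21.2% and 20.4% of tested genes over all cells. Of 9 further annexins in the files 6 were tested, with 1 higher and 1 lower. Anxa3, found in neutrophils, stood at 21.2 and 78.1 CPM (log2 ratio 1.88), Anxa7 had 0.20, Anxa11 had -0.30, and Anxa4 stood at 41.4 and 15.4 CPM (-1.43). Of 11 further S100 genes 4 were tested, with 0 higher and 2 lower. S100a1 stood at 42.8 and 48.6 CPM, and the lower ones were the mature neutrophil genes S100a8 (-2.45) and S100a9 (-3.58). Among 7 further galectins only Lgals9, whose product binds the checkpoint receptor Tim-3, was tested, at 132 and 198 CPM (0.58).

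Over all cells the 4 wider lists had median log2 ratios between -0.35 and -0.08, beside 0.02 over all tested genes. For intermediate filaments and linkers, 4 were tested, with 0 higher and 1 lower. Lmnb2 and Lmnb1, of the nuclear lamina, had 0.32 and 0.15, and the keratin gene Krt18 stood at 44.4 and 18.2 CPM (-1.29). For membrane and actin cytoskeleton genes, 17 were tested, with 1 higher and 4 lower. Pfn1, an actin monomer binder, had a log2 ratio of 0.36 and Tagln2 0.19, while Lsp1 had -1.14 and the non-muscle myosin gene Myh9 -0.43. The other lower ones, Msn (-0.39) and Capg (-0.33), are named after their values were seen. Of receptors and partners 4 were tested, with 0 higher and 2 lower, Cd44 (-0.61) and Ptprc (-0.54), and Itgb1 had 0.10. Of 3 tested RGK GTPases and Gem effectors 0 were higher and 1 was lower, Rock2 (-0.56), and Rock1 had -0.31.

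Within HSC-like cells, where 8.21% of tested genes passed 1.25-fold on the higher side and 10.5% on the lower, Lgals9 stood at 106 and 210 CPM (log2 ratio 0.98, 0.87 to 1.09). Of 17 tested membrane and actin genes 2 were higher there and 1 lower, with a median of 0.09. They were the tropomyosin gene Tpm4 (10.7 and 34.3 CPM, 1.68), Capg (0.42) and Lsp1 (-0.32), named after their values were seen. Of 5 tested annexins Anxa5, also named in that way, was higher (0.36) and Anxa4 was lower (52.2 and 34.5 CPM, -0.60).

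Patterns of level were compared over the 20 class-by-library sums of at least 50 cells, which share libraries, so the correlations describe these sums only. Of 5238 genes, the ones most like Lgals1 were Plac8 (Pearson r = 0.84), Slirp (0.79), Rpe (0.79), Eif4e2 (0.78) and Cox4i1 (0.78). Those most like Gem were Rtp4 (0.94), Ddx58 (0.84), Il2rg (0.82), Rbm39 (0.82) and Atp13a2 (0.81). Lgals1 and Gem were not alike over the same sums (r = 0.17).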

How the data were processed

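Droplet single-cell transcripts (10x Genomics, 3' ends) were counted in 1 control and 1 irradiated LSK library, grouped by the treatment in the labels. The deposited values are raw UMI counts per gene and barcode. Per the submitters' processing notes, Cell Ranger 2.1.1 and the build mm10 were used, and version 3.1.0 is named per the file headers. The number of columns of samples left unused was 0.

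Barcodes were kept with at least 1000 UMIs, 500 genes and at most 10% mitochondrial UMIs, which removed 496 control and 468 irradiated barcodes. Scrublet at an expected rate of 0.06 called 0 control and 18 irradiated doublets (0.351%), so doublet removal did not work, and an alternative without the 6% highest scores was added after the data were seen. Counts were summed per library and class and divided by the total of that set (CPM). With 1 library per group no count model was fitted. A log2 ratio carries an exact 95% interval conditional on the gene's total, and genes with a mean CPM of at least 20 were tested against a 2-fold or, for lists, a 1.25-fold threshold of size. On simulated counts for 5255 genes with 200 changed, 100% of the changed genes were recovered with 0 false calls, and 95.4% of intervals held the true ratio. These counts had counting error only, and all planted changes were larger than 2-fold. The simulation thus checks the arithmetic and says nothing about variation between libraries or animals.

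Cells were clustered with scanpy 1.11.5 and leidenalg 0.10.2 (Python 3.11.15) on 2000 variable genes, without the members, cell cycle, ribosomal, mitochondrial and sex-linked genes, using 30 components, 15 neighbours from each library and resolution 1. A cluster took a name when at least 3 markers stood among its top 25 genes by fold, at least 3 were seen in 10% or more of its cells, and the top 10 did not hold more markers of another list. Cells were thinned to 5000 UMIs for shares and phases. The members and lists were chosen with earlier results of these data known. Named relatives are up to 2 with the highest and 2 with the lowest ratio over all cells in each list, and 5 genes most like Lgals1 and Gem each were named. A few other list members were named after their values were seen, as stated there.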

Additional observations from a re-analysis of the deposited data

Results flagged for a closer look

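Several members had ratios of opposite sign in different classes, with counting intervals that excluded equal levels in both. The difference between the classes was not tested, since each has 1 library per group, and it is given as values. Lgals1 had log2 ratios of 2.01 in HSC-like, 1.88 in lymphoid-primed and 1.56 in megakaryocyte-primed cells, against -0.08 in neutrophil-primed cells. S100a6 had 1.55, 1.76 and 0.95 in the same order, against -1.39. S100a10 had 0.41 (HSC-like) and 0.077 (lymphoid-primed), against -0.48 in neutrophil-primed cells. S100a4 had 1.04 (HSC-like) and 1.06 (lymphoid-primed), against -0.51 in megakaryocyte-primed and -1.02 in neutrophil-primed cells. Vim had 0.80, 0.41 and 0.21 in HSC-like, lymphoid-primed and megakaryocyte-primed cells, against -0.29 in neutrophil-primed cells. The neutrophil-primed values of Lgals1, S100a6 and S100a4, the megakaryocyte-primed values of S100a4 and Vim and the lymphoid-primed value of S100a10 changed sign under other settings, as given with the processing below.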

How the results depend on the processing

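Lgals1, S100a6 and Gem kept their direction in HSC-like, lymphoid-primed and megakaryocyte-primed cells and over all cells under each alternative run. In HSC-like cells Lgals1 ran from 1.43 to 2.06, S100a6 from 0.78 to 1.56 and Gem from 1.48 to 2.12 on the log2 scale. The cause of the changes below was not tested.

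Over all cells, S100a10 turned to 0.014 with cells weighted equally, 0.010 thinned and 0.13 at the control cluster mix, and S100a11 to -0.0039 with equal weights. Anxa1 turned to -0.018 with equal weights, -0.038 thinned, and -0.080 and -0.42 at the control and irradiated mixes. The thinned share of all cells with a UMI was lower in the irradiated library for S100a10 (77.3% and 72.7%) and Anxa1 (28.3% and 25.9%), whereas unthinned it was higher by 0.369 and 8.90 points. The 2-fold count was 1 at the irradiated mix instead of 2. In HSC-like cells 30 neighbours gave -0.39 for Anxa2 and a 2-fold count of 2 instead of 4. Naming cells by their own markers gave -0.0048 for S100a10 and -0.073 for S100a11 in lymphoid-primed cells. In megakaryocyte-primed cells it gave 0.065 for S100a4, -0.059 for Anxa2 and -0.055 for Vim and the median. S100a4 there was 0.49 in G1 cells and 0.57 with 30 neighbours, which gave -0.052 for Anxa2.

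In neutrophil-primed cells Lgals1 was 0.081 with equal weights, 0.053 thinned, 0.11 without the 10 highest cells, 0.094 with 30 neighbours and 0.26 by own markers. Without the 10 highest cells S100a6 was 0.53, S100a4 0.38, and Anxa1 and the median 0.21. By own markers S100a6 was 0.97, Anxa1 0.22 and the median 0.22. The 2-fold count, which is 1 through Gem, below 20 CPM there, was 0 with equal weights, 30 neighbours, at most 5% mitochondrial UMIs or without the 6% highest doublet scores. With no filter 5.83% of genes were at least 2-fold higher and 17.4% lower, and 4.82% were lower at a mean CPM of at least 5. Median-of-ratios scaling shifted all ratios by -0.036. Gem in neutrophil-primed cells gave no value thinned or without the 10 highest cells, with 0 control UMIs left. Not run were megakaryocyte-primed cells at resolution 0.5 (no such cluster) and neutrophil-primed G1 cells (4 and 31 cells). No paired analysis was possible because each group has 1 library.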
